A study of Mus musculus with 41 samples.

Results

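Mouse embryonic stem cells held in 2i medium (mESC-2i) were compared for lactylation of histone H3 at lysine 18 (H3K18la) and trimethylation of histone H3 at lysine 4 (H3K4me3). The members were the 4 mESC-2i samples of these marks, 2 for H3K18la and 2 for H3K4me3, out of 41 samples in the series. Both marks were profiled by CUT&Tag, which inserts sequencing adapters into the DNA next to an antibody bound to chromatin. The cells were of the line E14 and grew in N2B27 medium with the MEK inhibitor PD0325901, the GSK3 inhibitor CHIR99021 and LIF, with no further treatment. All 4 samples thus came from 1 cell line, and they were processed as whole cells in buffers that held the deacetylase inhibitor sodium butyrate. Other lists of the series were read at the same places: H3K27me3 of mESC-2i (2 samples), 4 marks of E14 cells grown in serum and LIF (mESC-ser), and both marks of gastrocnemius muscle (GAS) and of macrophages sorted from muscle after hind-limb ischemia (PIM), the last 2 from adult female C57BL/6 mice and processed as nuclei. The serum list of H3K27ac rests on 1 sample.

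H3K4me3 is laid down by the MLL and SET1 methyltransferases at the start sites of genes, above all at CpG islands, which are stretches of DNA that have kept a high density of CpG. H3K18la carries a lactyl group that derives from lactate, the end product of glycolysis, and it is found at active promoters and enhancers together with histone acetylation. In stem cells a further set of CpG island promoters holds H3K4me3 beside H3K27me3, the mark of Polycomb repressive complex 2, and such promoters are called bivalent. The 2i medium blocks ERK signalling, relieves the repression of β-catenin targets and keeps the cells in the naïve state.

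Each mark had a single peak list, made from both of its samples together, so that no spread between samples could be measured and no test between the marks was possible. Shares carry 95% Wilson intervals and differences of shares carry Newcombe intervals, and both cover counting error only. The H3K18la list held 19908 peaks on chromosomes 1 to 19 and X and covered 128 Mb, and the H3K4me3 list held 19362 peaks and covered 49.8 Mb. The lists give no number of sequenced reads. A peak entered a list by its total signal, the fragment coverage summed over its bases, and the smallest total was 45771 for H3K18la and 31716 for H3K4me3. A mark called absent from a region was therefore below that threshold, which 14.2% of the H3K18la peaks and 11.3% of the H3K4me3 peaks exceeded by no more than 20%.

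Overlapping peaks were merged into 28877 regions on the mouse build mm10 (GRCm38). A region that held peaks of both lists, sharing at least 1 bp, was classed as both. The remaining regions were H3K18la-only or H3K4me3-only. Regions within 2000 bp of an annotated transcription start site (TSS) were promoter regions and all others were distal. The counts were 8746 regions with both marks, 11127 H3K18la-only regions and 9004 H3K4me3-only regions.

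The sequences under the strongest signal differed between the classes in how much CpG they held, and 5 windows of 300 bp are shown for that reason. Each is centred on the highest coverage of the H3K4me3 peak, or of the H3K18la peak in the last pair, and reads along the plus strand of GRCm38 with every CpG in capitals.
Nanog, both marks (chr6:122707328-122707627): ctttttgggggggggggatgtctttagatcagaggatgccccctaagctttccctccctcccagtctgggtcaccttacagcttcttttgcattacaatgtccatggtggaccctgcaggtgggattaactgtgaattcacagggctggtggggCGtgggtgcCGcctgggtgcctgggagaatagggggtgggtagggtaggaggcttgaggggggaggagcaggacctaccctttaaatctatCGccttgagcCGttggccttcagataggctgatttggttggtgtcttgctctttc
Esrrb, both marks (chr12:86469970-86470269): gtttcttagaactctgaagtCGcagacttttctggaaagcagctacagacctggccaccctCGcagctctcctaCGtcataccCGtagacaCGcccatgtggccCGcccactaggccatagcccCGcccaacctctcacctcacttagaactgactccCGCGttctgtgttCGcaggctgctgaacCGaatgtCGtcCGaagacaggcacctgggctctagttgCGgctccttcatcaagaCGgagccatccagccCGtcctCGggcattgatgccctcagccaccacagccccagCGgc
Neurog1, H3K4me3-only with H3K27me3 (chr13:56252007-56252306): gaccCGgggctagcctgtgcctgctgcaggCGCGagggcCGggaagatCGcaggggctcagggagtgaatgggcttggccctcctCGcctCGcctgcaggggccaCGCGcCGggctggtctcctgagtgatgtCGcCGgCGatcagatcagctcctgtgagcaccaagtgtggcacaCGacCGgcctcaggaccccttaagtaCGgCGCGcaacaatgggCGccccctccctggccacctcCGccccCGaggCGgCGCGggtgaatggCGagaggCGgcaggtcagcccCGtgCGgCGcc
1110002O04Rik, H3K18la-only promoter region (chr1:35881539-35881838): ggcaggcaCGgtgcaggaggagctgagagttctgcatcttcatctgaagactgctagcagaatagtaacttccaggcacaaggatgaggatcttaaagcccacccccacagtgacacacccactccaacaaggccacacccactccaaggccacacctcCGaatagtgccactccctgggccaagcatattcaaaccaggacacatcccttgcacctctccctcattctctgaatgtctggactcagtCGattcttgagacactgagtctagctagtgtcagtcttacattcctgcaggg
upstream of Smarcad1, H3K18la-only distal region (chr6:65024764-65025063): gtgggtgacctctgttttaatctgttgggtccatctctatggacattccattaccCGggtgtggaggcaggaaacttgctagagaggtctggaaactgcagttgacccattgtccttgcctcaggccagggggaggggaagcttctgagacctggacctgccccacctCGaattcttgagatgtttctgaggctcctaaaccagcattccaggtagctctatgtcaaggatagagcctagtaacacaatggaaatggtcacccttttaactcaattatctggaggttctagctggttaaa
Over all windows the median number of CpG was 19 for H3K4me3 peaks of promoter regions with both marks and 23 for H3K4me3-only promoter peaks, and for H3K18la-only peaks it was 4 at promoters and 3 elsewhere. The Nanog window held 4 CpG, below the median of its class, and had its centre at -11 bp from the start site. The window of Esrrb held 18 CpG, and that of Neurog1, a proneural transcription factor, held 29. The strongest H3K18la-only promoter region, at the non-coding gene 1110002O04Rik, held 3 CpG in its window, and the strongest H3K18la-only distal region held 2, with its centre at -17669 bp from the start of Smarcad1. The GC content was 56.0% at Nanog, 71.7% at Neurog1 and 49.3% upstream of Smarcad1.

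At promoters the marks were found together about as often as H3K4me3 was found alone, while away from promoters H3K18la was mostly alone. Of 16758 promoter regions, 7047 held both marks (42.1%, interval 41.3 to 42.8%), 6784 were H3K4me3-only (40.5%, 39.7 to 41.2%) and 2927 were H3K18la-only (17.5%, 16.9 to 18.05%). Of 12119 distal regions, 8200 were H3K18la-only (67.7%, 66.8 to 68.5%), 2220 were H3K4me3-only (18.3%, 17.6 to 19.02%) and 1699 held both (14.0%, 13.4 to 14.6%). Seen from the lists, 53.5% of H3K4me3 peaks and 44.1% of H3K18la peaks met the other mark. For H3K4me3 that share was similar at promoters (52.7%) and away from them (55.7%), whereas for H3K18la it was 70.7% at promoters and 17.3% elsewhere. The class shares depend on the length of the lists. When only the 3120 strongest H3K18la peaks were kept, so that both lists covered equal bases, 12.6% of promoter regions held both marks and 10.8% of distal regions were H3K18la-only.

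**Figure D1:**
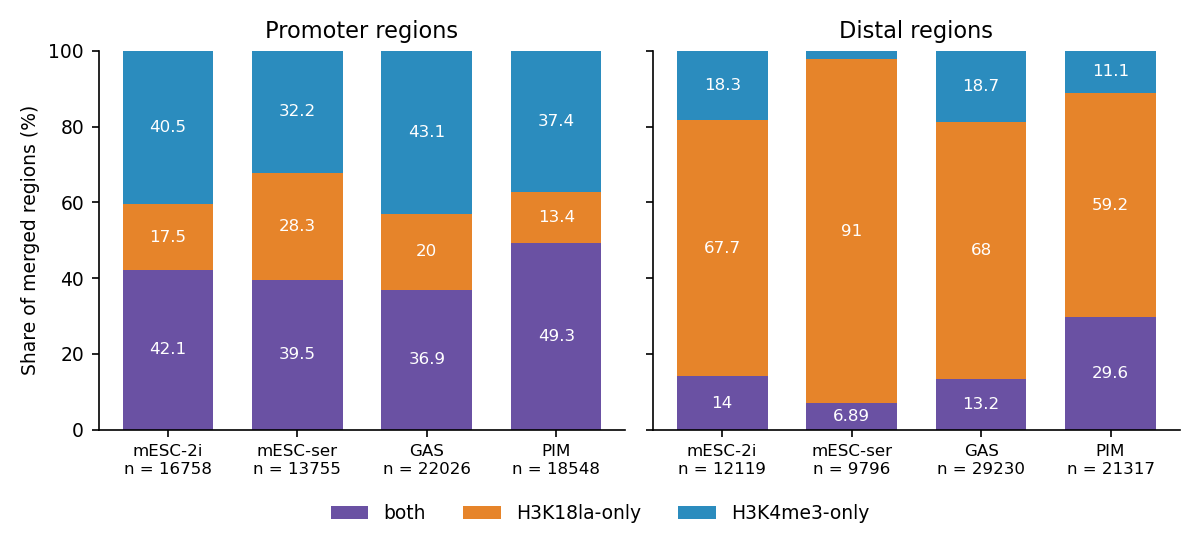
Share of merged regions (%, vertical axis) in each class, promoter regions on the left and distal regions on the right, for mESC-2i and for 3 other cell types with both marks; n is the number of regions. In mESC-2i 42.1% of promoter regions and 14.0% of distal regions held both marks, and 67.7% of distal regions were H3K18la-only.

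The 4 cell types with both marks are given side by side as values, since each rests on 1 list per mark. Promoter regions with both marks made up 42.1% for mESC-2i, against 39.5% for mESC-ser, 36.9% for GAS and 49.3% for PIM. H3K18la was wider than H3K4me3 by a median of 0.85 on the log2 scale in those of mESC-2i, and the same measure was 0.01 for mESC-ser, 0.14 for GAS and -0.48 for PIM. In distal regions with both marks GAS was highest with 1.46, against 1.18 for mESC-2i, 0.29 for mESC-ser and 0.30 for PIM. Distal H3K4me3-only regions made up 18.3% of the distal regions in mESC-2i, 18.7% in GAS and 11.1% in PIM. The share was 2.06% in mESC-ser, where the H3K4me3 list was shorter (11002 peaks). The part of list length in these differences was not tested.

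The strongest peaks met the other mark most often. The peaks of each mark were split into 4 groups of equal size by total signal. Of the promoter H3K4me3 peaks, 36.3% of the weakest group met H3K18la and 78.8% of the strongest did. For promoter H3K18la peaks the shares went from 62.2% to 84.9%, and for distal H3K18la peaks from 8.10% to 37.3%. The distal H3K4me3 peaks stood between 49.8% and 53.0% in the first 3 groups and at 67.8% in the strongest. Stronger peaks were also wider, from a median of 3120.5 to 13629 bp for promoter H3K18la and from 1716 to 3662 bp for promoter H3K4me3, and the part of width in these shares was not tested.

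H3K18la formed the wider domains, and H3K4me3 sat inside them. In promoter regions with both marks H3K18la covered a median of 5459 bp (quartiles 3522.5 and 9979.5) and H3K4me3 2970 bp (2209 and 4293.5). H3K18la was the wider mark in 6339 of these 7047 regions (90.0%, 89.2 to 90.6%), with a median width ratio of 0.85 on the log2 scale. In distal regions with both marks the medians were 5595 bp and 2291 bp and the ratio was 1.18. Peaks found alone were narrower: H3K18la-only regions had a median of 4663 bp at promoters and 4069 bp elsewhere, and H3K4me3-only regions 2067 bp and 1621 bp.

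**Figure D2:**
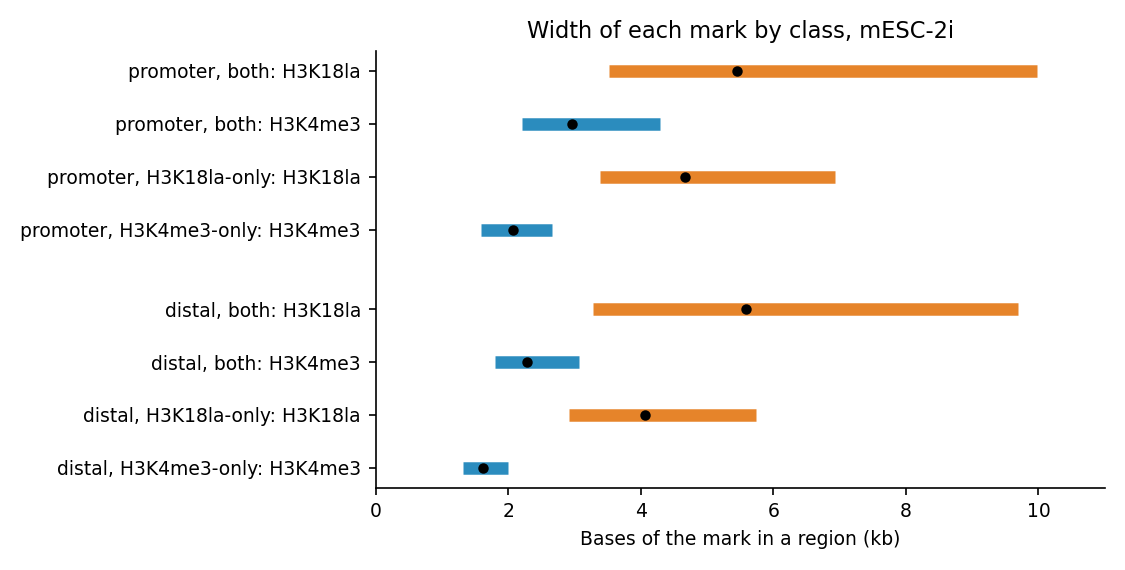
Bases covered by each mark in a region (kb, horizontal axis) for the classes of promoter and distal regions in mESC-2i; bars span the quartiles and dots are medians, orange for H3K18la and blue for H3K4me3. In regions with both marks the median for H3K18la is higher than that for H3K4me3 (5459 against 2970 bp at promoters), and both marks are wider in regions that hold both than in regions that hold 1.

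Nesting ran in 1 direction. Of all H3K4me3 peaks, 8019 lay with every base inside a single H3K18la peak (41.4%, 40.7 to 42.1%), which was 77.4% of those that met H3K18la at all. The reverse held for 404 H3K18la peaks (2.03%, 1.84 to 2.23%). With H3K18la reduced to the bases of H3K4me3, as above, a choice that favours wide H3K18la peaks, the shares were 17.99% and 0.385%. By bases, 58.7% of the H3K4me3 list lay in H3K18la and 22.8% of the H3K18la list lay in H3K4me3. The highest point of an H3K4me3 peak fell in H3K18la for 98.8% of the peaks that met it, and the highest point of an H3K18la peak fell in H3K4me3 for 82.3%. Among promoter regions with both marks, 71.7% had all their H3K4me3 within 1 H3K18la peak, 24.6% were staggered and 3.72% had H3K18la within H3K4me3. In 797 regions 2 H3K4me3 peaks shared a domain, and in 267 regions 3 or more did, up to 7.

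H3K18la went past H3K4me3 on both sides of the TSS in most regions, and by more upstream than downstream. The extents were measured in 4873 promoter regions with both marks and protein-coding starts on 1 strand only, in which the strongest peak of each mark covered the TSS. Of several such starts, the one nearest to the highest H3K4me3 coverage was taken, a choice that favours short distances for H3K4me3. H3K18la extended a median of 2145 bp upstream and 2422 bp downstream of the TSS, and H3K4me3 1012 bp upstream and 1667 bp downstream. H3K18la thus reached farther than H3K4me3 by a median of 930 bp upstream and 539 bp downstream. It was the farther-reaching mark upstream in 86.8% of regions (85.8 to 87.7%) and downstream in 74.7% (73.4 to 75.9%), and it was so on both sides in 65.5%. H3K4me3 reached farther on both sides in 2.401%. H3K4me3 was skewed into the gene, with a longer downstream arm in 74.1% of regions, against 54.4% for H3K18la. The highest H3K4me3 coverage stood downstream of the TSS in 63.2% of regions and the highest H3K18la coverage in 41.0%, with median positions of 72 and -57 bp. In 54.1% of regions the summits of the marks lay within 500 bp of each other.

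**Figure D3:**
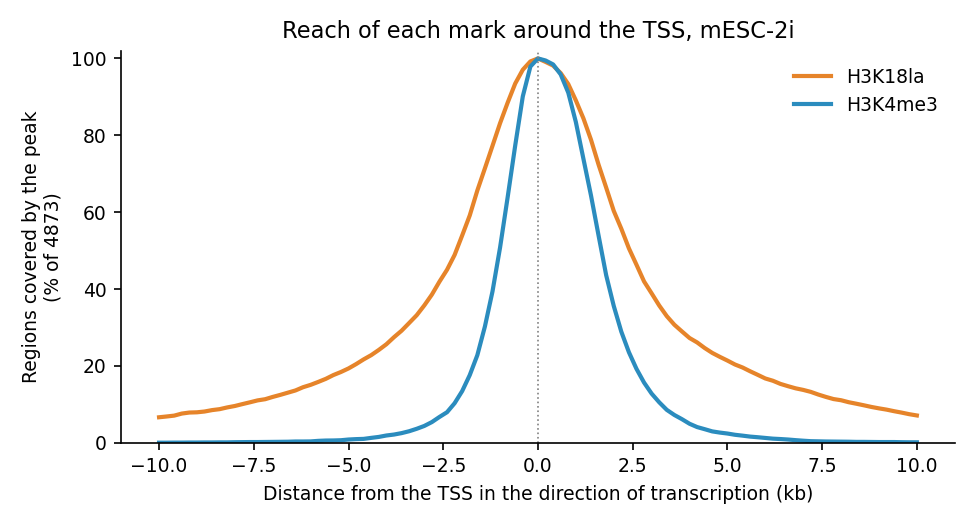
Share of 4873 promoter regions with both marks (%, vertical axis) in which the strongest peak of H3K18la (orange) or H3K4me3 (blue) covers a base at a given distance from the TSS (kb, horizontal axis, negative upstream). At 1000 bp upstream H3K18la covers 83.2% of regions and H3K4me3 50.8%; at 1000 bp downstream the shares are 89.1% and 83.5%.

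The extremes of this arrangement were at named genes. H3K18la went farthest beyond H3K4me3 at Cd9, a tetraspanin membrane protein, where 1 H3K18la domain of 81392 bp (chr6:125418670-125500061) held 3 H3K4me3 peaks with 15700 bp in all. It was followed by Foxn3, a forkhead repressor, with 63948 bp of H3K18la and 1892 bp of H3K4me3, then by Mkrn1 (66110 and 5985 bp), Scd2, a stearoyl-CoA desaturase (79558 and 20910 bp), and Rnf125 (62366 and 8347 bp). None of these 5 regions met H3K27me3, which was at 8.43% of all promoter regions with both marks. At the other end, H3K4me3 went farthest beyond H3K18la at Tbx2, a T-box developmental regulator, where 7748 of its 12315 bp lay outside the 5586 bp of H3K18la. Next came Pax6, a regulator of eye and neural development, with 7332 of 12746 bp outside the 5455 bp of H3K18la. A cluster of predicted genes around Gm10720 near the start of chromosome 9, Arhgef17 and the kinase gene Sgk1 completed these 5. The Gm10720 region had extreme coverage, with a maximum of 14015 for H3K4me3 and 3378 for H3K18la. The median maxima of these lists were 118 and 119. Of the 5 regions, 4 met H3K27me3, all but that of Sgk1, against the same 8.43%.

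The regions of highest total H3K18la signal held both marks at Mid1 and Gm21887 on the X chromosome, at Cd9, at Hspb8 with Srrm4, and at Irf2bpl. The first of these had a maximum coverage of 6006, against 437 to 487 in the other 3, and a median of 119 over the list. The same held for the first distal regions with both marks, an intergenic stretch of 2082 bp whose nearest protein-coding gene was Ly6c2 (maximum 14013) and an intronic stretch of 690 bp in Kctd16 (maximum 13306). Coverage of this height was rare, since 37 H3K18la peaks and 40 H3K4me3 peaks exceeded 10 times the median maximum of their list. The distal regions next in order were an intron of Tns3, which codes for a focal adhesion protein, with 34558 bp of H3K18la over 3 H3K4me3 peaks, and an intergenic domain of 56624 bp beside Glrx5 over 6 H3K4me3 peaks.

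Promoter regions with H3K4me3 but no H3K18la carried H3K27me3 more often than the other classes, though most of them did not carry it. The H3K27me3 list of mESC-2i (24613 peaks, 145 Mb) took no part in the classes. It met 2458 of 6784 H3K4me3-only promoter regions (36.2%, 35.1 to 37.4%), 594 of 7047 with both marks (8.43%, 7.80 to 9.10%) and 127 of 2927 H3K18la-only regions (4.34%, 3.66 to 5.14%). H3K4me3-only exceeded both by 27.8 percentage points (26.5 to 29.1). Away from promoters the shares were 23.5%, 6.95% and 2.27% in the same order. By bases, H3K27me3 covered 41.7% of the H3K4me3 at H3K4me3-only promoter regions and 6.39% of it at those with both marks.

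The gap between the classes was widest where H3K4me3 was broad. Promoter regions with H3K4me3 were split into 4 equal groups by the bases of H3K4me3. In the narrowest, of 281 to 1821 bp, 27.7% held H3K18la as well, and H3K27me3 met 21.5% of the H3K4me3-only regions and 3.34% of those with both. In the broadest, of 3394 bp and more, 80.6% held H3K18la, and H3K27me3 met 520 of the 670 H3K4me3-only regions (77.6%, 74.3 to 80.6%) and 12.5% of the 2787 with both (11.3 to 13.7%). Broad H3K4me3 without H3K18la was thus mostly H3K4me3 with H3K27me3. Among regions with both marks, the share with H3K27me3 also followed the arrangement. It was 5.92% (5.30 to 6.60%) where H3K4me3 lay inside H3K18la, 12.6% (11.1 to 14.2%) where they were staggered and 29.4% (24.2 to 35.2%) in the 262 regions where H3K18la lay inside H3K4me3.

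The 594 promoter regions that held all 3 marks had wider H3K4me3 and lower H3K18la coverage than the rest of those with both marks. Their median H3K4me3 width was 3776 bp, against 2898 bp in regions with both marks and no H3K27me3, and their median maximum H3K18la coverage was 90.5 against 131. In the pooled list of a bulk culture, marks on the same nucleosome, on different alleles and in different cells cannot be told apart.

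The classes were also read against lists from the serum-grown cells, which were made from other libraries. Any shared base counted, and promoter regions with both marks were the widest, with a median of 5687 bp. The median was 4663 bp for H3K18la-only and 2067 bp for H3K4me3-only regions. The part of width in the shares of this paragraph and in the distal shares below was not tested. H3K27ac of mESC-ser, an acetylation of active promoters and enhancers, met 77.0% of promoter regions with both marks (76.0 to 77.9%), 34.4% of H3K4me3-only regions (33.3 to 35.5%) and 27.2% of H3K18la-only regions (25.6 to 28.8%). Within the H3K4me3-only class it met 2163 of the 4326 regions without H3K27me3 and 170 of the 2458 with it (6.92%). H3K18la of mESC-ser met 78.2% of promoter regions with both marks, 56.5% of H3K18la-only regions and 11.9% of H3K4me3-only regions. Of the bivalent H3K4me3-only regions, 96.7% also met H3K27me3 in mESC-ser, and so did 92.1% of the regions with all 3 marks. In the muscle lists the classes with H3K4me3 were closer: H3K4me3 of GAS met 84.9% of promoter regions with both marks and 82.9% of H3K4me3-only regions, and H3K18la of GAS met 55.6% and 29.0%.

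**Figure D4:**
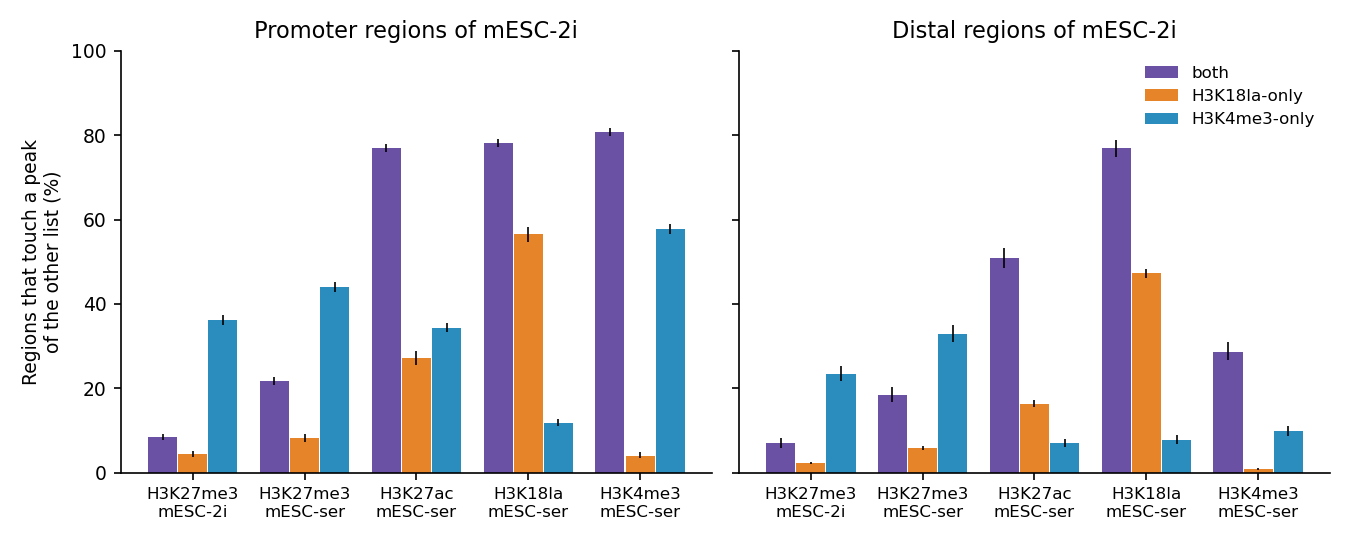
Share of mESC-2i regions (%, vertical axis) that touch a peak of 5 other lists of stem cells, by class, at promoter regions (left) and distal regions (right); error bars are 95% Wilson intervals. The H3K4me3-only class is highest for H3K27me3 of both media (36.2% and 44.0% at promoters), and the class with both marks is highest for H3K27ac (77.0%).

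Both classes with H3K4me3 were CpG island promoters, and the H3K18la-only class was not. A CpG island called from the sequence lay in 78.5% of promoter regions with both marks (77.5 to 79.4%), in 85.4% of H3K4me3-only regions (84.5 to 86.2%) and in 6.22% of H3K18la-only regions (5.40 to 7.15%). Among protein-coding genes with an island at the promoter, 51.9% had both marks, 41.2% H3K4me3 only, 1.06% H3K18la only and 5.77% neither. Without an island, 77.4% had neither mark and the marked genes were spread more evenly, with 9.39% holding both, 6.41% H3K18la only and 6.78% H3K4me3 only.

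Short motifs in the 300 bp windows differed with the class as well. GGGCGG, the core of SP-family sites, was in 57.6% of the windows of H3K4me3-only promoter peaks, in 50.7% of the H3K4me3 windows of regions with both marks, in 15.8% of H3K18la-only promoter windows and in 11.1% of distal H3K18la-only windows, against 39.0% of windows of this length at all protein-coding starts. TCAAGGTCA, bound by the orphan nuclear receptor ESRRB, was instead more frequent in H3K18la-only windows, with 0.280% of H3K4me3-only promoter windows, 3.21% of H3K18la-only promoter windows and 3.13% of distal H3K18la-only windows, against 0.413% at all starts. The octamer ATGCAAAT was in 0.383%, 3.42% and 3.81% of the same windows, against 1.16%. ATTGTT, the SOX core, was in 2.98%, 15.4% and 19.9%, against 8.14%. These windows are centred on different marks. In the H3K18la windows of regions with both marks, TCAAGGTCA, the octamer and ATTGTT were in 1.46%, 1.67% and 7.70% at promoters. Away from promoters they were in 2.24%, 2.89% and 12.3%. CCAAT, the NF-Y core, was found in between 22.8% and 34.6% of the windows of every class. The TATA element TATAAA was in 2.05% of H3K4me3-only and 10.6% of H3K18la-only promoter windows, against 9.81%. All motifs were searched on both strands, and the base composition of the windows (a median GC content of 65.7% for H3K4me3-only promoters and 49.7% for distal H3K18la-only peaks) moves with these shares, whose dependence on it was not tested.

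The promoter regions that held H3K18la alone were less often at genes that code for proteins. A protein-coding promoter lay in 56.0% of them, against 90.1% of regions with both marks and 94.5% of H3K4me3-only regions. A start site lay within the region itself in 67.2%, 96.6% and 93.1%. The strongest of them were at the non-coding genes 1110002O04Rik (48134 bp, chr1:35840613-35888746), 2410152P15Rik (24525 bp) and Gm45433 beside Anapc10 (27968 bp), and at Gm10282 (11567 bp, chr8:72305296-72316862). The last lies shortly before the H3K18la domain over Klf2 (chr8:72317364-72338701), so the promoters that such regions serve cannot be read from position alone. The strongest H3K4me3-only promoter regions were 2 stretches of the 5S ribosomal RNA gene cluster on chromosome 8, of 15171 and 11031 bp. Next came Dmrta2, a regulator of the developing cortex, with 13902 bp, and Muc19, with 3808 bp. All 4 met H3K27me3, beside 36.2% of all H3K4me3-only promoter regions and 77.6% of those in the broadest group of H3K4me3, to which they belong. The 2 stretches of 1 cluster of repeated genes are not independent.

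Around the distal H3K18la-only regions, which by the class rule overlap no H3K4me3 peak and no promoter, the nearest H3K4me3 peak was a median of 27791 bp away. For distal H3K4me3-only regions the nearest H3K18la peak was a median of 102230 bp away. Of the distal H3K18la-only regions, 30.7% were in introns only, 17.6% touched an exon and 51.7% were outside genes. H3K18la of mESC-ser met 47.3% of them and H3K27ac of mESC-ser 16.3%. For distal regions with both marks these shares were 76.9% and 50.8%. The strongest H3K18la-only domains stood upstream of Smarcad1, a chromatin remodeller of the SNF2 family (37926 bp, chr6:64997433-65035358), in Ndufaf6 (25086 bp), in a non-coding stretch whose nearest protein-coding gene was Ktn1 (23413 bp) and in an intron of Dpp6 (37879 bp).

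Distal H3K4me3-only regions were of 2 kinds. Of 2217 whose windows could be read, 1435 (64.7%, 62.7 to 66.7%) were soft-masked as repeats in the genome sequence over 50% or more of the window. That share was 27.5% for H3K18la-only and 22.7% for regions with both marks. A single run of 20 bases recurred in 28.8% of the distal H3K4me3-only windows, and the most frequent run of any other class recurred in at most 4.78%, where the run was counted once per window and chosen for each class apart. The repeat regions met H3K27me3 in 4.11% (3.20 to 5.27%), H3K4me3 of mESC-ser in 4.95% and a CpG island in 0.139%. The other 782 regions met H3K27me3 in 59.2% (55.7 to 62.6%), H3K4me3 of mESC-ser in 18.9% and a CpG island in 50.3% (46.8 to 53.8%). Islands were called with soft-masked bases left out, so a low island share in the repeat regions follows from that rule. These island shares therefore do not tell the kinds apart. Over all distal H3K4me3-only windows, repeats included, the median was 18 CpG. Which copy of a repeat a read came from cannot be told for identical copies, and the lists do not state how such reads were placed.

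Genes were classed by the peaks within 2000 bp of any of their start sites, and the peaks of both marks at a gene did not have to overlap. Among the listed genes with both marks, those of Crebbp and Grhl2 lay at different starts and shared no base. Of 21755 protein-coding genes, 34.6% held both marks, 27.2% H3K4me3 only, 3.24% H3K18la only and 35% neither, and 22.5% held H3K27me3. H3K18la, with or without H3K4me3, was at 37.8% and H3K4me3 at 61.8%. With equal bases 1973 genes held both marks, against 7525. H3K27me3 was at 2152 of the 5915 genes with H3K4me3 only (36.4%) and at 936 of the 7525 with both (12.4%), a difference of 23.9 percentage points (22.5 to 25.4). Of 5305 lincRNA genes 10.5% held both marks, 9.22% H3K18la only and 5.28% H3K4me3 only. The label of the cells was checked on 7 stem cell markers (Pou5f1, Nanog, Sox2, Klf4, Esrrb, Tfcp2l1 and Zfp42), all of which held both marks. Of the markers of other cells, 0 of 9 for muscle, 1 of 8 for macrophages (Cd68), 1 of 7 for adipocytes (Lpl) and 2 of 9 for fibroblasts (Vim and Lum) held H3K18la.

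**Figure D5:**
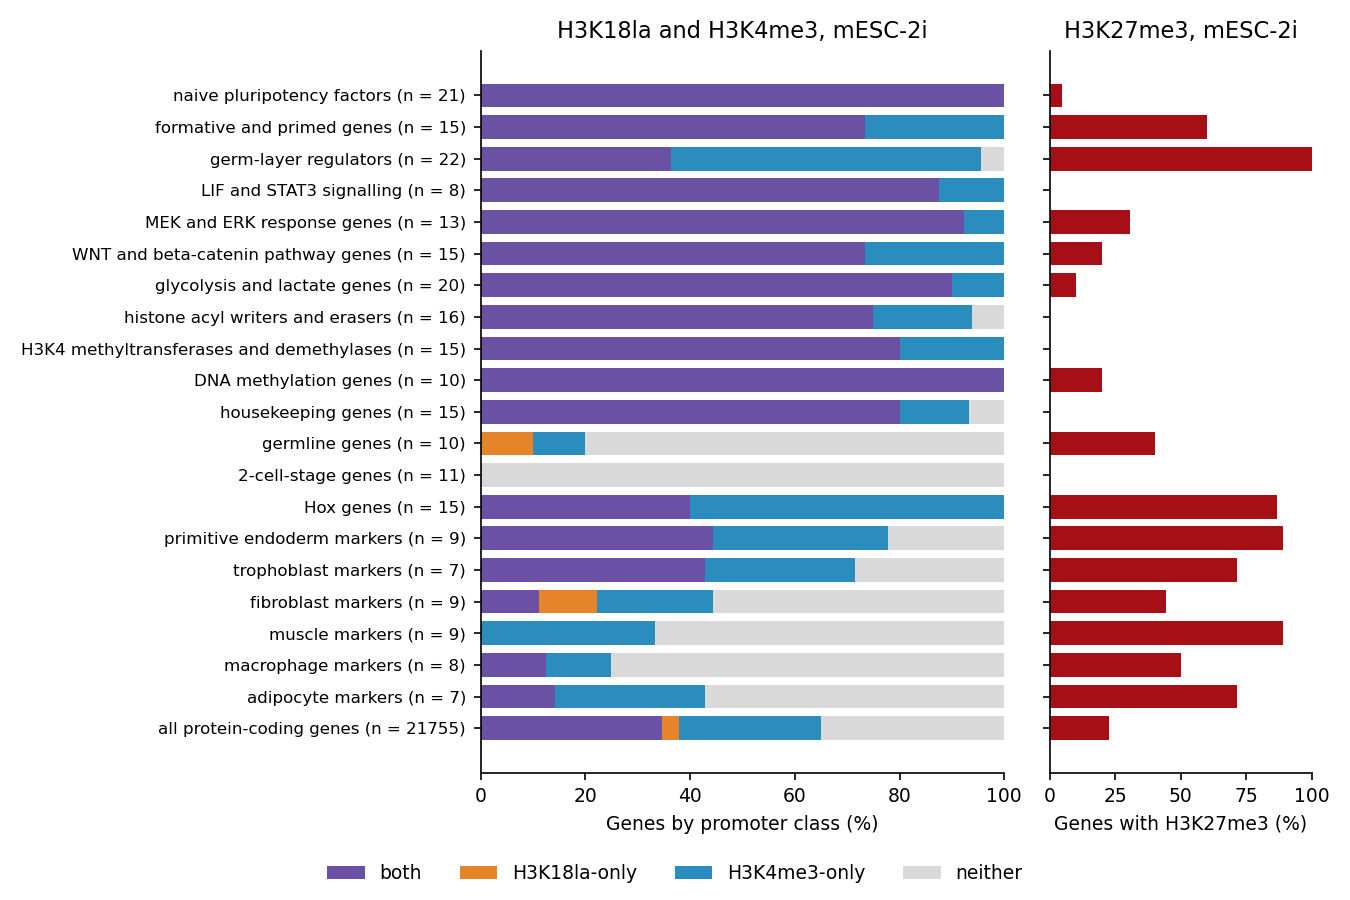
Genes of 20 lists and all protein-coding genes (vertical axis) by the class of their promoter in mESC-2i (left, %) and by H3K27me3 (right, %). All 21 naive pluripotency factors hold both marks, against 34.6% of all protein-coding genes, and all 22 germ-layer regulators hold H3K27me3, against 22.5%.

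All 21 naive pluripotency factors held both marks, and only Esrrb among them held H3K27me3. H3K27ac of mESC-ser was at 19 of them, beside 80.0% of all protein-coding genes with both marks. Their H3K18la domains were broad, with a median of 11475 bp against 5738 bp over all 7525 protein-coding genes with both marks, and 17 of the 21 were wider than that background. Their median maximum H3K18la coverage was 338, against 124. H3K4me3 was broad too, with 6595 bp against 2867 bp. Nanog, a homeodomain factor of the naïve state, lay in 34129 bp of H3K18la (chr6:122682593-122716721, maximum 322) with an H3K4me3 peak of 8114 bp (maximum 274) wholly inside. Pou5f1, which codes for OCT4, had 23043 bp of H3K18la (maximum 629) around 10144 bp of H3K4me3. Tfcp2l1, a naïve-state factor downstream of LIF, had 13906 bp around 9365 bp, and Klf2, a Krüppel-like factor, 21338 bp around 5393 bp. Esrrb had the widest H3K18la domain of the list, 63810 bp (chr12:86460306-86524115). The gene had 3 H3K4me3 peaks over its starts, with 22360 bp in H3K18la, and not all of them lay wholly inside it. Its strongest H3K27me3 peak (chr12:86417941-86430923) lay outside that domain, at another annotated start of the gene. At Sox2 the marks were staggered, with H3K4me3 from 34647857 to 34654451 on chromosome 3 and the stronger of 2 H3K18la peaks from 34652296 to 34675641. Both H3K18la peaks together covered 6082 of the 6595 bp of H3K4me3 there. All of the H3K4me3 lay inside H3K18la at 14 of the 21 genes, and at 4560 of the 7525 in the background (60.6%).

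The germ-layer regulators, transcription factors that open the embryonic lineages, all held H3K27me3, at 22 of 22 genes beside 22.5% of all protein-coding genes. Both marks were at 8, a share near the 34.6% of all genes, H3K4me3 alone was at 13, beside 27.2%, and neither was at Tbx5. Foxa2, a pioneer factor of endoderm, had 6547 bp of H3K4me3 and 12124 bp of H3K27me3 with no H3K18la peak. Neurog1 had 2618 bp of H3K4me3 inside 9137 bp of H3K27me3. Mixl1, a regulator of mesendoderm, had 2655 bp inside 3345 bp. The 8 genes with both marks included Eomes, Gata6, Sox17, Sox1, Gsc and Cdx2. H3K18la at the 8 was narrow and low, with a median width of 4297 bp and a median maximum of 84.5. None of the 8 met H3K27ac of mESC-ser, beside the 80.0% of all genes with both marks. H3K4me3 was as high there as in the background, with median maxima of 158.5 and 158. Sox17, an endoderm factor, had 2579 bp of H3K18la with a maximum of 68, against a median maximum of 119 over the H3K18la list. Cdx2, which drives trophoblast and hindgut, was wider, with 8971 bp of H3K18la around 4651 bp of H3K4me3.

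Genes that mark the exit from the naïve state lay between these lists. Of 15 formative and primed genes 11 held both marks and 4 H3K4me3 only (Fgf5, Pou3f1, Sox3 and Tcf15), and 9 held H3K27me3. Dnmt3b, a de novo DNA methyltransferase, had both marks, with 4014 bp of H3K18la and no H3K27me3. Fgf5, a growth factor of the primed epiblast, had 1861 bp of H3K4me3 inside 5852 bp of H3K27me3. Of 15 Hox genes 6 held both marks, 9 H3K4me3 only and 13 H3K27me3. The primitive endoderm markers, a cell type that can arise beside naïve cells, held both marks at 4 of 9 genes (Gata6, Sox17, Pdgfra and Lama1), and the trophoblast markers at 3 of 7 (Cdx2, Tfap2c and Krt8), beside 34.6% of all protein-coding genes. H3K27me3 was at 8 of the 9 and 5 of the 7, beside 22.5%.

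The pathways that the 2i medium acts on were marked by both at most of their genes, beside 34.6% of all protein-coding genes with both marks and 22.5% with H3K27me3. In LIF and STAT3 signalling 7 of 8 genes held both marks, all but the kinase gene Jak1, and none held H3K27me3. H3K18la was broad at these 7 genes, with a median of 15082 bp and each above the background median, and Socs3, the feedback inhibitor of the pathway, had 34807 bp around 8515 bp of H3K4me3. Of 13 genes that respond to MEK and ERK, which the medium inhibits, 12 held both marks and 4 held H3K27me3 (Dusp4, Spry4, Etv4 and Egr1). Dusp6, an ERK phosphatase, had 7592 bp of H3K18la around 5352 bp of H3K4me3. In the WNT and β-catenin pathway 11 of 15 genes held both marks. The targets Axin2 and Sp5 were among them, with 14903 bp of H3K18la in the stronger of 2 peaks and 7303 bp. The R-spondin receptor gene Lgr5, the ubiquitin ligase gene Rnf43, the inhibitor Nkd1 and the scaffold gene Axin1 held H3K4me3 only, and H3K27me3 was at the first 3.

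Genes of glycolysis and lactate transport, which make and move the metabolite behind the mark, held both marks at 18 of 20, beside the 34.6% of all genes that also stands beside the lists that follow. The others were Pfkl and Pgam1, with H3K4me3 only. Ldha, the lactate dehydrogenase subunit of lactate production, had 10335 bp of H3K18la around 2 H3K4me3 peaks. Pkm, the pyruvate kinase gene, had 7638 bp of H3K18la. H3K18la at 16 of the 18 was wider than the background median. Slc16a3, a lactate exporter, held all 3 marks, with 5837 bp of H3K18la at a maximum of 52. Of 16 histone acyl writers and erasers 12 held both marks, among them Ep300, which codes for the acetyltransferase p300, with 3932 bp of H3K18la, and 4 of these 12 were wider than the background median. Of 15 enzymes and subunits of H3K4 methylation 12 held both marks, all but Kmt2c, Setd1a and Kdm5a. All 10 DNA methylation genes held both marks, and Tet1, a 5-methylcytosine dioxygenase, had 29597 bp in the stronger of 2 H3K18la peaks and 4 H3K4me3 peaks, all inside H3K18la. Of 15 housekeeping genes 12 held both marks, B2m and Rplp0 H3K4me3 only and Hprt neither, and H3K27me3 was at none.

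Genes of other programmes were mostly outside both lists. Of 10 germline genes, whose promoters are silenced by DNA methylation in somatic cells, 8 held neither mark, Stra8 H3K18la only and Dmrtb1 H3K4me3 only, and 4 held H3K27me3, beside 35% of all protein-coding genes with neither mark and 22.5% with H3K27me3. All 11 genes of the 2-cell stage, which include the Zscan4 cluster, held neither mark and no H3K27me3. Copies of that cluster are near-identical, and the absence of peaks there cannot be told apart from reads that could not be placed.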

How the data were processed

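H3K18la and H3K4me3 were profiled by CUT&Tag in 2 samples each of mESC-2i. According to the methods of the study, the authors trimmed reads with Trim Galore 0.6.6, aligned them to mm10 with Bowtie2 2.4.4, sorted them with SAMtools 1.13, computed coverage with bedtools 2.30, combined replicates and called peaks with SEACR 1.3 in stringent mode (top 1%, no control). The deposited lists give total and maximum signal as fragment coverage, in whole numbers and not scaled for depth, so signal levels of different lists are not comparable. The methods also name a filter on peaks in blacklisted regions, and whether the deposited lists precede that step is not stated. From the lists of H3K18la and H3K4me3 in mESC-2i, 21 peaks each lay outside chromosomes 1 to 19 and X and were left out, and from the other lists 5 to 47. Serum lists of H3K4me3 and H3K27me3 were assigned through their sample descriptions.

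Promoters came from 139486 transcripts of the GENCODE vM21 annotation of GRCm38. CpG islands (at least 200 bp, 50% GC, observed over expected CpG 0.6) were called on the sequence of RefSeq GRCm38 with soft-masked bases left out. Named genes were the members of 20 lists, the 4 regions of highest total signal per class, and the 5 promoter regions with the most bases of 1 mark beyond the other. The members and the lists were chosen with earlier results of these data known. Intervals were 95% Wilson or Newcombe intervals; no tests were run. Interval functions equalled bedtools 2.31.1 in 20 of 20 simulations. Python 3.11.15, numpy 2.4.6, pandas 2.3.3, scipy 1.17.1 and matplotlib 3.10.9 were used. Some items are not reported here.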

Additional observations from a re-analysis of the deposited data

How the results depend on the processing

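No paired analysis was possible because each mark had 1 list made from both replicates, and for the same reason no replicate could be left out. Of 63 recomputed values 35 stayed within the main interval (for the gene count, within 1.5 times), 28 moved and no difference changed sign. The order of the classes did change: both exceeded H3K4me3-only at promoters in the values reported, and fell below it in 3 alternatives (protein-coding starts, the strongest 50% of peaks and equal bases). Leaving out the peaks of extreme coverage, joining peaks within 1000 bp or asking for an overlap of 50% of the shorter peak moved none. Promoter windows of 1000 bp gave 43.4% both and 41.5% H3K4me3-only at promoters. Starts of protein-coding transcripts only gave 45.7% and 46.6%, with 17.02% both and 65.0% H3K18la-only among distal regions. The 50% of peaks with the highest total signal in each list gave 29.8% both and 48.2% H3K4me3-only at promoters, 7.23% both and 81.7% H3K18la-only elsewhere, an H3K27me3 difference of 22.0 points, H3K18la wider in 96.4%, nesting of 34.1% of H3K4me3 and 0.723% of H3K18la peaks, and 3768 genes with both marks. With H3K18la reduced to the bases of H3K4me3, which kept 3120 peaks, the same values were 12.6%, 85.4%, 12.1%, 10.8%, 19.3 points, 99.3%, 17.99%, 0.385% and 1973 genes. The shares of the classes thus depend on how many peaks a list keeps, and with equal bases H3K18la-only no longer led among distal regions. The fewer peaks follow from the construction of this alternative. Total signal is summed over width, so this alternative and the one before it favoured wide peaks. Their shares for the wider mark and for nesting depend on that choice as well. Without the 4977 regions over repeats, an alternative chosen after seeing the data like that on extreme coverage, promoters had 43.3% both and 41.9% H3K4me3-only, and distal regions 16.3% and 73.9% H3K18la-only. The H3K27me3 difference stayed between 19.3 and 28.2 points throughout.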
